A study of Mus musculus with 15 samples.

Results

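The RNA of Sox2-derived mouse cells was compared between 7 d cultures with and without CHIR, a small-molecule activator of WNT signalling. Of the 15 sorted-cell RNA libraries of the study, 5 were compared, chosen by their labelled source, medium and sort gate and not by any measured value. All came from STR-KI, a mouse line in which 1 allele of Sox2 carries mCherry and 1 allele of Tbxt carries GFP, the other allele of each gene being wild type. Embryonic stem cells of this line were first turned into neuromesodermal progenitors (NMPs), the bipotent cells at the tail end that give rise to spinal cord and to paraxial mesoderm, by 48 h in 10 ng/mL FGF2 and 24 h in 10 ng/mL FGF2 with 5 µM CHIR. FGF/CHIR was then continued for 48 h and mCherry-positive cells were sorted, and their derivatives were kept for 7 d either in FGF and CHIR (FGF/CHIR) or in FGF alone (FGF). Each culture was then sorted as mCherry-positive (Sox2+) or as negative for both reporters (double negative, DN). The groups were FGF/CHIR Sox2+ (1 library), FGF/CHIR DN (1 library), FGF Sox2+ (2 libraries) and FGF DN (1 library). The FGF cells are thus not naive to CHIR, since they carry the same earlier exposure. Doses in the later media are not given in the sources.

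Everything below comes from 1 cell line, and the labels do not say whether libraries or media came from separate cultures. With 1 library in 3 of the 4 groups, medium and culture cannot be told apart, and p-values measure the spread between libraries of the replicated groups, which may be technical. In bulk samples, fewer cells of a type and less RNA per cell cannot be told apart either.

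CHIR inhibits the kinase GSK3, which in resting cells marks β-catenin for destruction. When GSK3 is blocked, β-catenin accumulates, joins TCF/LEF factors on DNA and turns on a set of genes, many of which code for inhibitors that feed back on the pathway. In the caudal embryo, WNT and FGF signals maintain the axial progenitors and drive Cdx and posterior Hox genes, while their withdrawal goes with neural differentiation.

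Of the 12 WNT target and feedback genes that were higher with CHIR, 9 were matched by symbol to the RefSeq promoter table (GRCm38.p6), which held 15 start-site windows for them, each reaching from 250 bases before to 50 bases after the start. The short TCF/LEF word searched, on both strands, was CTTTG followed by A or T and then again A or T. At least 1 copy was found in 3 of these 15 windows (20%), against 5544 of 32851 windows of the same length over all genes (16.9%). The 3 windows, 1 each for Sp5, Lef1 and Tnfrsf19, are shown because these genes were higher with CHIR and hold such a word. Capitals mark the words. In Sp5 (chr2:70474673-70474972, plus strand) they begin at positions -222, on the minus strand, and -104, on the plus strand, counted from the start site. In Lef1 (chr3:131156044-131156343, plus strand, 1 of 4 windows) the word begins at -147 and in Tnfrsf19 (chr14:61037938-61038237, minus strand, 1 of 2 windows) at -202, both read on the strand opposite to the gene.
Sp5: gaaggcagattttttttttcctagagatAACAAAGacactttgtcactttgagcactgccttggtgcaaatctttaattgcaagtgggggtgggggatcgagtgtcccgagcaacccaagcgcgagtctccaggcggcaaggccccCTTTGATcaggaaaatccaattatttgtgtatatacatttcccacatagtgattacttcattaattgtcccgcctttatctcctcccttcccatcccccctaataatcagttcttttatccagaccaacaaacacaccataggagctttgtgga
Lef1: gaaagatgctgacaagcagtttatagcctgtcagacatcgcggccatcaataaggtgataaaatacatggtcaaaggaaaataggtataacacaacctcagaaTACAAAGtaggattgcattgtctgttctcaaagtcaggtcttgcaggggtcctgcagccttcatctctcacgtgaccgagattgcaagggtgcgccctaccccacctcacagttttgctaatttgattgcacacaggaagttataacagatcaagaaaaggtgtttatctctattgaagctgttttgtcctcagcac
Tnfrsf19: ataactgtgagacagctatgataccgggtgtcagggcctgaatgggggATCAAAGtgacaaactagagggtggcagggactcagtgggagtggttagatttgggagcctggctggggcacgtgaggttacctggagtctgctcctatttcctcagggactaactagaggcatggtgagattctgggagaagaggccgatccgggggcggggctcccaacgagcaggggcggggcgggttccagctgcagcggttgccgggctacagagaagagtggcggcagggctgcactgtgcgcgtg
The share of windows with a word was close to that of all genes, and a match describes letters, not a bound site.

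Levels are given in CPM, the reads of a gene scaled to a total of 1000000 per library. Depth, estimated from the value of a single read, was 3.43 to 9.88 M reads in 14 libraries, and 0.799 M reads in FGF Sox2+ replicate 2, where 3 reads correspond to 3.76 CPM against 0.308 to 0.686 CPM in the 4 libraries beside it. These limits cover counting error only. Sox2, the reporter gene of the gate, stood at 199 and 5.03 CPM in the FGF/CHIR Sox2+ and DN libraries, and at 390.2, 388 and 29.1 CPM in FGF Sox2+ replicates 1 and 2 and FGF DN. This order of libraries, the 2 with CHIR and then the 3 without, is kept throughout. Sox2 RNA was therefore higher in the Sox2+ than in the DN library of each medium, as the gates are labelled, and was lower with CHIR in the average over gates (-1.64 ± 0.31, adjusted p = 0.00387), a call that was lost with a pseudocount of 0.25 CPM (adjusted p = 0.0989). Tbxt stood at 15.4 and 1.14 CPM with CHIR and 4.88, 8.76 and 20.4 CPM without.

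The libraries differed in more than their medium. FGF DN held 228 CPM of Sox17, 460 CPM of Gata6 and 120 CPM of Foxa2, factors of endoderm, and 2277 CPM of Lamc1, a laminin of basement membrane, against 37.9, 99.0, 10.5 and 155 CPM in FGF/CHIR DN. The 17 endoderm genes summed to 24.2 and 619.7 CPM with CHIR against 73.4, 55.1 and 1364 CPM. FGF DN also held the highest sums of other lists. The endothelium list summed to 4.11 and 53.3 CPM with CHIR against 20.2, 25 and 265 CPM. For the limb and lateral plate list the sums were 34.8 and 298 against 109, 60.1 and 812 CPM. For intermediate mesoderm they were 283 and 203 against 253, 364 and 959 CPM. FGF Sox2+ replicate 2 was above replicate 1 in neuronal genes (1287 against 407 CPM summed over 26 genes), and replicate 1 above replicate 2 in epithelial genes (1000 against 532 CPM over 20 genes). Ptprc, Myod1, Myog and Msgn1, genes of blood, skeletal muscle and presomitic mesoderm, were at 0 CPM in all 5 libraries. Gata1 reached 0.212 CPM and Tbx6 0.413 CPM in the highest library. The blood list summed to 6.58 and 70.6 CPM with CHIR against 4.88, 3.76 and 16.9 CPM. The presomitic mesoderm list summed to 129 and 112 against 221, 267 and 237 CPM. This list also holds Cited1 and Dll1, whose levels are given below, and the neural tube expresses Dll1 too. The sum therefore shows neither presence nor absence of presomitic mesoderm cells. The part of these differences in the results below was not tested, and the comparison within the Sox2+ gate does not use the DN libraries.

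A gene was called higher or lower where its adjusted p was under 0.05 in a limma fit of all 15 libraries, with Benjamini-Hochberg adjustment over 12943 tested genes. Fold changes are differences on the log2(CPM + 1) scale, FGF/CHIR over FGF, averaged over the 2 gates unless a gate is named, and are followed by ± their standard error. This scale understates changes of genes with low counts. In the gene descriptions no fold change is given for a gene with 3 reads or fewer in one medium of a gate, only its levels. The list medians, the figures and the gate differences flagged near the end do include such genes, and their size there depends on the pseudocount. In the average over gates, 769 genes were higher (5.94%) and 1017 lower (7.86%), together 1786 of the genes tested (13.8%). Of these, 1691 had the same sign in both gates. Calling on the average favours this, since opposite signs cancel in it, so the count does not measure agreement between the gates. Within the Sox2+ gate 1160 genes passed (8.96%), 435 higher (3.36%) and 725 lower (5.6%). Within the DN gate 915 passed (7.07%), 515 higher (3.98%) and 400 lower (3.09%). Without Tbxt-derived 7 d replicate 1, which stands apart from its group, the gates gave 1838 and 1516 calls in place of 1160 and 915. The genes called in both gates separately numbered 134 higher (30.8% of the Sox2+ and 26.0% of the DN calls) and 100 lower (13.8% and 25%). Of the 169 named genes called in the average, 102 passed within the Sox2+ gate and 92 within the DN gate. Many of the genes described were called in the average and did not pass within the Sox2+ gate. Sox2, Sox17, Ttr, Fzd7, Hoxd13, Dll1, Prrx1, Twist2 and Otx2 were among them. So were Cripto, Nanog, Etv4, Hey1, Sema5a, Btg2, Slc2a1 and Insig1. The same held for Axin2, Notum, Nkd1, Wif1, Bambi, Tbxt, Tcf7l2, Fzd10, Dkk2, Gbx2, Fgf8, Gli2 and Gli3, as given below. These are not all such genes. Others did not pass within the DN gate, Sp5 and Rnf43 among them (adjusted p = 0.126 and 0.102). Bambi, Fzd7, Hoxd13, Axin2 and Notum passed in neither gate by itself. A fit of the 5 libraries alone, with terms for medium and gate and 2 residual degrees of freedom, so that its spread also holds any difference between gates, called 90 genes in the average and 32 of the 169. A test against a 2-fold minimum called 199 genes and 63 of the 169. These 2 strict settings are named where they are meant, and the other settings mentioned below are the remaining 21. No gene list was tested as a set. Each count of list members is to be read beside the shares of all tested genes given here. The plot of both gates shows most genes near 0 and the WNT and posterior Hox genes in the corner where both gates rise.

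**Figure D1:**
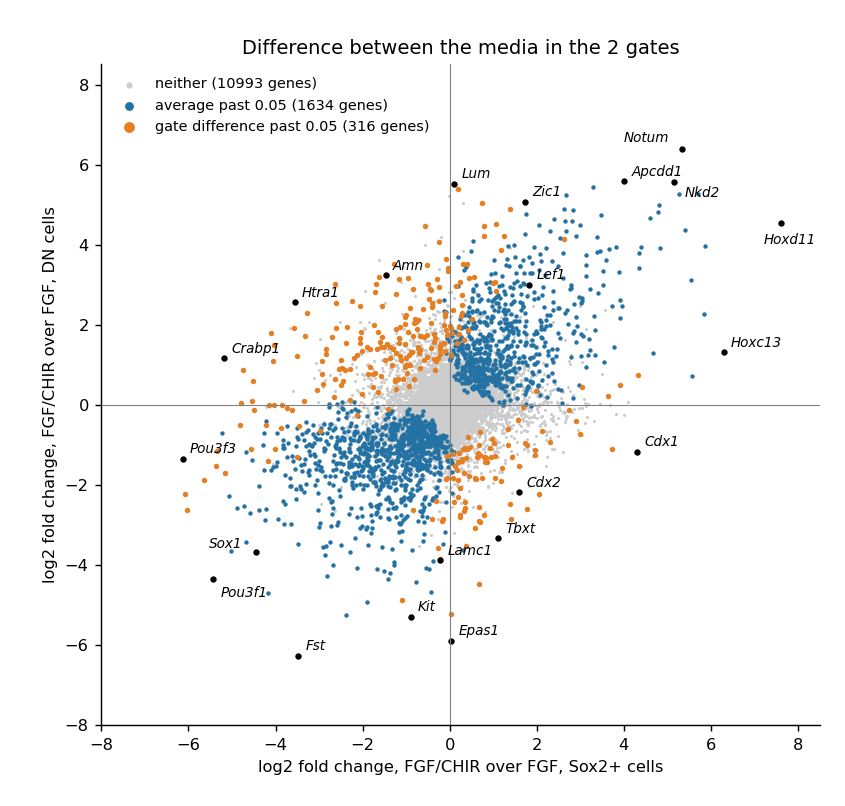
Log2 fold change of FGF/CHIR over FGF in Sox2+ cells (x axis) and in DN cells (y axis), on the log2(CPM + 1) scale, for all 12943 tested genes. Grey points passed neither test, blue points passed in the average over gates and orange points in the difference between gates, with labelled genes in black; Nkd2, Notum and Apcdd1 sit high in both gates, Pou3f1 and Sox1 low in both, and Crabp1 and Cdx1 lie off the diagonal.

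Most WNT targets and feedback genes were higher with CHIR. Of 20 tested members, 12 were higher with CHIR and 2 lower, with a median log2 fold change of 1.88 (1.62 with values under 3 reads raised to 3 reads), against a median of -0.03 over all genes. Over the other settings, 9 to 13 were higher, with 6 in the fit of the 5 libraries alone and 4 under the 2-fold minimum. Within the Sox2+ gate 7 were higher and 1 lower, and within the DN gate the same counts were found. Over all tested genes 5.94% were higher and 7.86% lower in the average. The shares were 3.36% and 5.6% in the Sox2+ gate and 3.98% and 3.09% in the DN gate. The plot of this list by library shows the separation gene by gene.

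**Figure D2:**
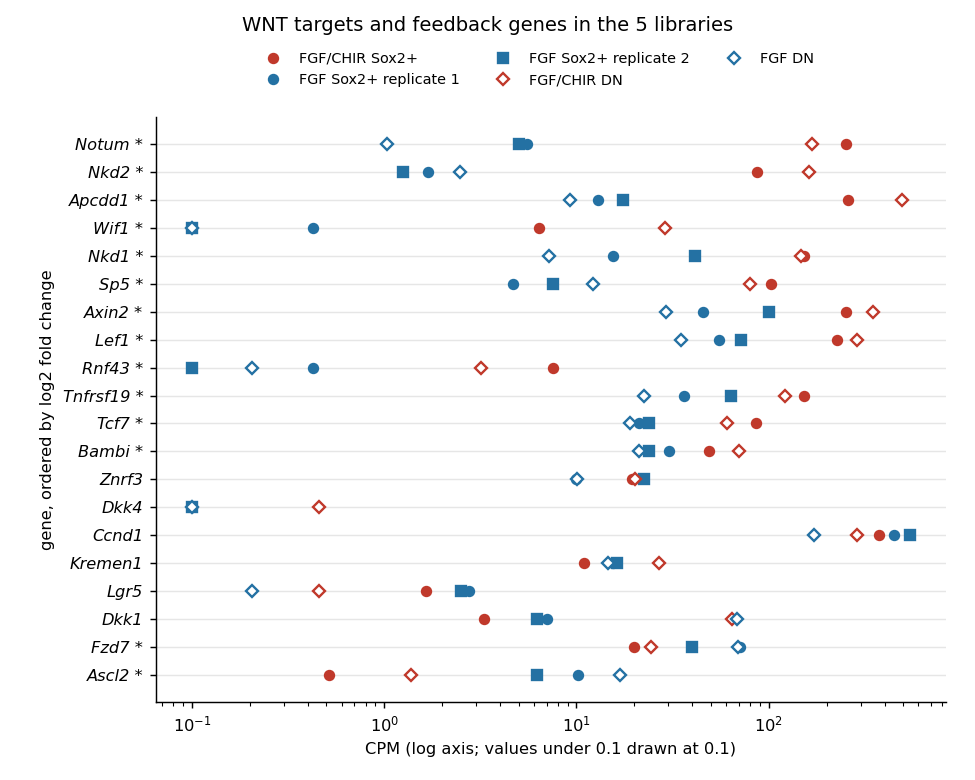
Level in CPM (log axis, values under 0.1 drawn at 0.1) of the 20 tested WNT targets and feedback genes, ordered by log2 fold change, in FGF/CHIR libraries (red) and FGF libraries (blue); circles and squares are Sox2+ libraries, open diamonds DN libraries, and an asterisk marks an adjusted p under 0.05. For the 12 higher genes both red points lie to the right of all blue points, and Ascl2 and Fzd7 show the reverse. Of all tested genes 13.1% were separated in the first way and 16.3% in the second. These members were already called on the same values, which favours separation.

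Nkd2, a feedback inhibitor that binds Dishevelled, stood at 86.6 and 162 CPM with CHIR and 1.7, 1.25 and 2.48 CPM without it, where the value of FGF Sox2+ replicate 2 is a single read. It was higher by 5.35 ± 0.34 (adjusted p = 2.29e-06), with 5.15 ± 0.44 (adjusted p = 5.26e-05) in Sox2+ and 5.55 ± 0.51 (adjusted p = 9.12e-05) in DN cells. The related Nkd1 stood at 153 and 147 against 15.5, 41.3 and 7.22 CPM, and was higher by 3.36 ± 0.66 (adjusted p = 0.00924), without passing in the Sox2+ gate by itself (adjusted p = 0.103). Both FGF/CHIR libraries lay above all 3 FGF libraries for either gene. Notum codes for a secreted enzyme that removes the lipid WNT proteins need, and stood at 251 and 168 against 5.52, 5.01 and 1.03 CPM. It was higher by 5.86 ± 1.22 (adjusted p = 0.0127), a call that the voom fit did not keep (adjusted p = 0.242), and neither gate passed by itself (adjusted p = 0.0731 in Sox2+ and 0.076 in DN cells). Apcdd1, a membrane inhibitor of WNT signalling, stood at 257 and 493 CPM with CHIR and 13, 17.5 and 9.29 CPM without, and was higher by 4.80 ± 0.76 (adjusted p = 0.00343). Axin2, a scaffold of the β-catenin destruction complex and the most used readout of the pathway, stood at 251 and 349 against 45.2, 100.2 and 29.1 CPM. Its groups did not overlap, but its fold change of 2.71 ± 0.71 (adjusted p = 0.034) carried a wide error, and Tbxt-derived 7 d cells, which enter the shared spread, ranged from 93.5 to 556 CPM. The call on Axin2 was lost without NMP replicate 1, 2 or 3, Tbxt 48 h replicate 1 or 2 or FGF Sox2+ replicate 1, and in the voom fit, with adjusted p up to 0.06, and neither gate passed by itself (adjusted p = 0.249 in Sox2+ and 0.0871 in DN cells).

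Of the factors that read the signal, Lef1 stood at 227 and 288 CPM with CHIR and 55.4, 71.4 and 35.1 CPM without, and was higher by 2.42 ± 0.16 (adjusted p = 2.86e-06). Tcf7 stood at 85.6 and 60.4 against 21.2, 23.8 and 19 CPM and was higher by 1.75 ± 0.20 (adjusted p = 0.00013). Tcf7l2 went the other way, at 19.7 and 23.3 against 51.6, 38.8 and 188 CPM, and was lower, at -2.05 ± 0.41 (adjusted p = 0.00678). The FGF DN library held the highest level of Tcf7l2, and within the Sox2+ gate its difference of -1.14 did not pass (adjusted p = 0.219, or 0.00907 without Tbxt-derived 7 d replicate 1). Sp5, a zinc-finger repressor induced by β-catenin, stood at 103 and 80.00 CPM with CHIR and 4.67, 7.51 and 12.2 CPM without, and was higher by 3.26 ± 0.60 (adjusted p = 0.00613). It passed within the Sox2+ gate (adjusted p = 0.0136) and not in DN cells (0.126). Tnfrsf19, a receptor of the TNF family, stood at 152 and 121 against 36.1, 63.9 and 22.5 CPM, and was higher by 2.01 ± 0.22 (adjusted p = 0.000111). The promoter words printed above belong to Lef1, Sp5 and Tnfrsf19.

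Among members at lower levels, Rnf43, a ubiquitin ligase that removes WNT receptors, stood at 7.5 and 3.2 CPM with CHIR and 0.425, 0 and 0.206 CPM without (adjusted p = 0.00229), a call lost when values under 3 reads were raised to 3 reads (0.0535). Wif1, a secreted WNT binder, stood at 6.37 and 28.8 against 0.425, 0 and 0 CPM (adjusted p = 0.0133, up to 0.406 over the other settings, and 0.174 within the Sox2+ gate). Bambi, a pseudoreceptor of the BMP pathway, stood at 48.9 and 69.7 against 30.2, 23.8 and 21.3 CPM and was higher by 1.26 ± 0.33 (adjusted p = 0.0266). That call was lost without FGF Sox2+ replicate 2, and neither gate passed by itself (adjusted p = 0.262 in Sox2+ and 0.0719 in DN cells). The 2 lower members were Ascl2, a stem-cell bHLH factor, at 0.514 and 1.37 CPM with CHIR and 10.2, 6.26 and 16.9 CPM without (-2.75 ± 0.44, adjusted p = 0.00135), and the receptor Fzd7, at 19.9 and 24.5 against 70.7, 40.1 and 69.5 CPM (-1.42 ± 0.33, adjusted p = 0.014). Fzd7 did not pass in either gate by itself (adjusted p = 0.0726 in Sox2+ and 0.11 in DN cells). The remaining 6 members, Znrf3, Dkk1, Dkk4, Lgr5, Ccnd1 and Kremen1, did not pass. Ccnd1, a cyclin often listed as a target, stood at 373 and 288 CPM with CHIR and 448, 542 and 172 CPM without.

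WNT ligands and receptors did not move as a block. Of 8 tested ligands, 2 were higher and 4 lower, beside 5.94% and 7.86% of all tested genes. Wnt5b, a ligand that mostly acts without β-catenin, stood at 29.7 and 18.5 CPM with CHIR and 5.1, 1.25 and 2.06 CPM without, and was higher by 2.86 ± 0.32 (adjusted p = 0.000117). Wnt6 stood at 35.7 and 27 against 13.2, 8.76 and 3.1 CPM and was higher by 2.21 ± 0.24 (adjusted p = 0.000105). Wnt7b, a ligand of neural epithelium, stood at 0.411 and 4.8 against 18.1, 26.3 and 11.4 CPM and was lower, at -2.55 ± 0.32 (adjusted p = 0.00026). Wnt3 was lower too, at 1.95 and 0.457 against 6.58, 21.3 and 9.08 CPM (adjusted p = 0.00173). The 2 other lower ligands, Wnt3a and Wnt8a, were named after their values were seen. Wnt3a was listed at 0 CPM in both FGF/CHIR libraries and at 5.73, 8.76 and 0.619 CPM in the FGF libraries (adjusted p = 0.000991), and Wnt8a at 0 CPM in both against 1.7, 1.25 and 2.48 CPM (adjusted p = 0.00615).

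Of 31 receptors and core components, 6 were higher and 4 lower; the lower count was 1 or 2 without any single library of the NMP, 48 h or FGF Sox2+ groups. Fzd10, a receptor of the dorsal neural tube and the tail bud, stood at 295 and 213 CPM with CHIR and 69.6, 132 and 18.2 CPM without, and was higher by 2.54 ± 0.59 (adjusted p = 0.0196), but did not pass within the Sox2+ gate (adjusted p = 0.235). Gsk3b, the target of the compound, and Ctnnb1, the gene of β-catenin, were looked at for their role: Gsk3b stood at 168 and 169 against 144, 210.3 and 133 CPM and Ctnnb1 at 461 and 527 against 493, 535 and 424 CPM, and neither passed (adjusted p = 0.675 and 0.758). Of 8 secreted antagonists outside the target list, 2 were higher and 1 was lower (2 lower without Tbxt-derived 7 d replicate 1). The lower one was Sfrp1, a soluble decoy receptor, at 10.2 and 9.14 CPM with CHIR and 116, 111 and 44.6 CPM without (-2.76 ± 0.40, adjusted p = 0.000972). Dkk2 was higher, at 0.514 and 31.9 against 0.637, 0 and 2.89 CPM (adjusted p = 0.00465), most of it in DN cells. It did not pass within the Sox2+ gate (adjusted p = 0.771), and its adjusted p in the average reached 0.132 over the other settings and 0.395 in the fit of the 5 libraries alone. Shisa2, the other higher antagonist, stood at 23.1 and 7.54 against 2.97, 7.51 and 3.71 CPM (adjusted p = 0.0409); it was called in 11 of 21 other settings, with adjusted p up to 0.09, and lost without NMP replicate 2 or 3, any library of the Sox2 48 h or Tbxt 48 h groups, or FGF Sox2+ replicate 1.

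Hox genes, which give cells their position along the body axis, were higher with CHIR over most of the 4 clusters. Of 37 tested Hox genes 27 were higher and 2 lower, and for 18 both FGF/CHIR libraries lay above all 3 FGF libraries, against 1694 of all tested genes (13.1%). The median log2 fold change was 0.87 over paralogs 1 to 4 (4 of 12 higher, 2 lower), 1.94 over paralogs 5 to 9 (13 of 14 higher) and 3.81 over paralogs 10 to 13 (10 of 11 higher), or 3.24 for the last with values under 3 reads raised to 3 reads. The fit of the 5 libraries alone called 0, 5 and 7 of them higher, and without FGF Sox2+ replicate 2 the first count was 2. By cluster, 6 of 10 HoxA, 5 of 10 HoxB, 8 of 8 HoxC and 8 of 9 HoxD genes were higher. Summed over the 12 genes of paralogs 10 to 13, the level was 1030 and 565 CPM with CHIR against 31.5, 56.3 and 37 CPM.

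**Figure D3:**
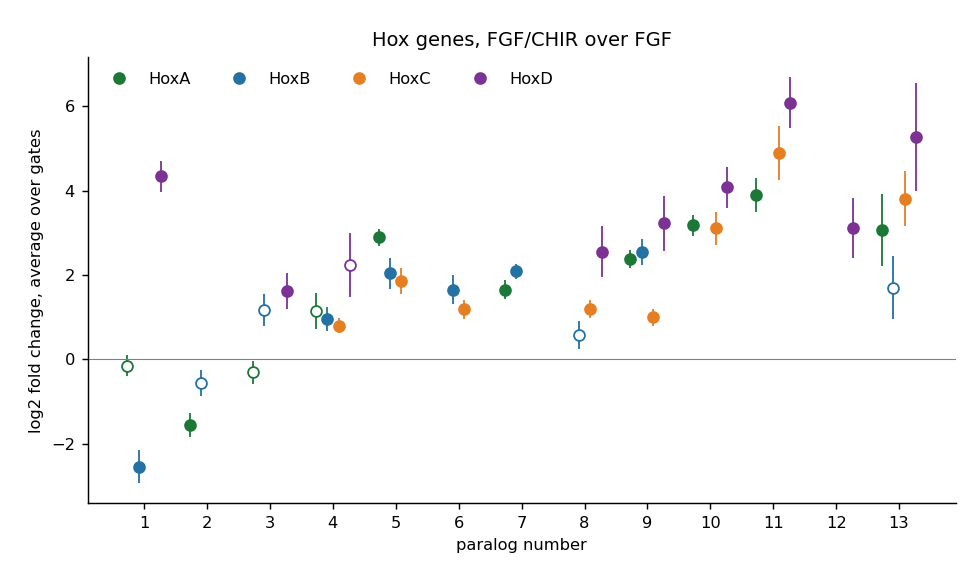
Log2 fold change of FGF/CHIR over FGF, averaged over gates, ± its standard error, for 37 Hox genes by paralog number, with clusters A to D in colour and filled points for an adjusted p under 0.05. The medians are -0.15 and -1.05 for paralogs 1 and 2 and between 2.46 and 4.89 for paralogs 9 to 13, and Hoxd1, at 4.33, lies far above the other genes of its paralog.

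The largest change of a Hox gene was in Hoxd11, at 281 and 169.5 CPM with CHIR and 1.06, 0 and 6.29 CPM without, higher by 6.08 ± 0.60 (adjusted p = 9.13e-05). Hoxd10 stood at 47.4 and 44.6 against 1.49, 1.25 and 2.27 CPM and was higher by 4.08 ± 0.49 (adjusted p = 0.000197). Hoxc11 stood at 75.4 and 28 against 0.425, 1.25 and 0.413 CPM (adjusted p = 0.00037), with no more than 3 reads in any FGF library. Hoxd13, the last gene of its cluster, stood at 91.6 and 84.6 against 0.637, 2.5 and 1.24 CPM (adjusted p = 0.0256, or 0.209 in the voom fit). For Hoxd13 neither gate passed by itself (adjusted p = 0.0886 in Sox2+ and 0.157 in DN cells). In the middle of the clusters, Hoxa5 stood at 189 and 103 CPM with CHIR and 30.6, 30.1 and 10.5 CPM without, higher by 2.89 ± 0.20 (adjusted p = 3.94e-06), and Hoxb9 at 291 and 122 against 76, 55.1 and 15.1 CPM, higher by 2.55 ± 0.31 (adjusted p = 0.000273). The levels of both were about as far apart in DN cells (3.18 and 2.94) as in Sox2+ cells (2.60 and 2.15).

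At the 3′ ends, where genes of the hindbrain lie, values of both signs were found. Hoxa2 stood at 11.4 and 5.03 CPM with CHIR and 52.4, 82.6 and 8.56 CPM without, and was lower, at -1.55 ± 0.28 (adjusted p = 0.00312). Hoxb1 stood at 0.822 and 0.229 against 20.2, 6.26 and 5.16 CPM and was lower too (adjusted p = 0.000957). Hoxd1, by contrast, stood at 137 and 20.3 against 0.849, 3.76 and 1.45 CPM and was higher by 4.33 ± 0.37 (adjusted p = 1.91e-05). Hoxa11os, an antisense RNA beside Hoxa11, stood at 65.3 and 53.4 against 0.637, 0 and 0.413 CPM (adjusted p = 2.29e-06), but the sources do not give whether the counting used strand, so reads of Hoxa11os and Hoxa11 may not be separable.

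The 48 h source cells help to place these levels, as a description with no test. Hoxb9 stood at 179.7 and 202 CPM in the 2 Sox2 48 h libraries, between the FGF and the FGF/CHIR Sox2+ levels, and Hoxa5 at 79.8 and 47.9 CPM. Hoxd11, in contrast, stood at 4.8 and 3.54 CPM at 48 h and Hoxc11 at 0.505 and 1.14 CPM, both far below the 7 d FGF/CHIR libraries. In the 3 libraries of Tbxt-derived cells kept 7 d in FGF/CHIR, Hoxd11 stood at 239.7, 39.7 and 64.8 CPM and Hoxa5 at 159.9, 162 and 122 CPM.

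Genes of the NMP and the caudal epiblast split by gate. Of 15 tested, 5 were higher and 5 lower in the average, beside 5.94% and 7.86% of all tested genes. Over the other settings 3 to 5 were higher and 3 to 7 lower. The fit of the 5 libraries alone and the 2-fold minimum called 0 either way. In Sox2+ cells 5 were higher and 1 lower, beside 3.36% and 5.6% of all tested genes. In DN cells 1 was higher and 5 were lower, beside 3.98% and 3.09%. The difference between gates itself was negative and past the test for 5 of the 15, beside 0.749% of all tested genes. The Cdx genes, regulators of posterior Hox genes, show this. Cdx1 stood at 31.5 and 0.457 CPM with CHIR and 1.7, 0 and 2.27 CPM without. It was higher within the Sox2+ gate (adjusted p = 0.000196), did not pass in DN cells (0.256), and the difference between the gates passed (0.00275, or 0.0623 in the voom fit). Cdx4 stood at 38.2 and 1.6 against 3.4, 1.25 and 1.24 CPM and was higher within the Sox2+ gate by 3.64 ± 0.52 (adjusted p = 0.000998). Cdx2, named after its values were seen, stood at 294 and 8.69 against 103, 90.2 and 42.9 CPM, higher in Sox2+ cells by 1.6 ± 0.27 (adjusted p = 0.00257) and lower in DN cells, at -2.18 ± 0.31 (adjusted p = 0.000941). Evx1, a homeobox gene of the tail bud, was higher in the average, at 62.4 and 31.3 CPM with CHIR and 4.03, 2.5 and 6.19 CPM without (3.04 ± 0.74, adjusted p = 0.0248). Gbx2 stood at 33.9 and 1.83 against 64.6, 60.1 and 33.6 CPM and Fgf8 at 4.42 and 0 against 7.01, 2.5 and 36.5 CPM, and both were lower in the average (adjusted p = 0.000874 and 0.00112), Fgf8 not in the voom fit (0.0727). The highest level of Fgf8 was in FGF DN, the library with the highest endoderm sum. Within the Sox2+ gate neither gene passed (adjusted p = 0.248 and 0.98), although Gbx2 did without Tbxt-derived 7 d replicate 1 (0.0237).

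Tbxt itself, the gene of Brachyury and of the GFP reporter, stood at 15.4 and 1.14 CPM with CHIR and 4.88, 8.76 and 20.4 CPM without. It was lower in DN cells, at -3.32 ± 0.51 (adjusted p = 0.00186), with no difference past the test in Sox2+ cells (1.12 ± 0.44, adjusted p = 0.139), and the difference between gates passed (adjusted p = 0.00536). Its average of -1.10 ± 0.34 (adjusted p = 0.0465) was called in 10 of 21 other settings. That call was lost without FGF Sox2+ replicate 2 (adjusted p = 0.102), without NMP replicate 2 or 3, and without any library of the Sox2 48 h or Tbxt 48 h groups, and over those 21 settings its adjusted p reached 0.199. It was 0.726 in the fit of the 5 libraries alone. Of 10 tested presomitic mesoderm genes none was higher (0 to 2 in other settings, 4 at an unadjusted p under 0.05 in either direction) and 3 were lower in the average. Meox1, a somite gene, was among them, at 0.308 and 0 CPM with CHIR and 7.64, 6.26 and 7.02 CPM without (adjusted p = 0.00077). Cited1 stood at 19.5 and 61.3 against 99.2, 45.1 and 188 CPM (-1.67 ± 0.34, adjusted p = 0.00672). Dll1, a Notch ligand that the neural tube also expresses, stood at 14 and 0.914 against 35.7, 78.9 and 4.95 CPM (adjusted p = 0.0226, or 0.0525 without FGF Sox2+ replicate 2).

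Most neural progenitor genes were lower with CHIR. Of 18 tested, 11 were lower and 1 higher, with a median log2 fold change of -2.44, and in the Sox2+ gate, which sorts for the reporter of a neural progenitor gene, 13 were lower and 1 higher. In the DN gate 6 were lower and 1 was higher. Over all tested genes 7.86% were lower in the average, 5.6% in the Sox2+ gate and 3.09% in the DN gate. Summed over 20 listed genes, the level was 885 and 767 CPM with CHIR against 1938, 2665 and 391 CPM. The fit of the 5 libraries alone called 3 of them lower, and the other settings 9 to 12. The higher count was 2 without FGF Sox2+ replicate 2 or Tbxt-derived 7 d replicate 2 and 3 without Tbxt-derived 7 d replicate 1. The plot of gene lists sets this beside lists with higher members.

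**Figure D4:**
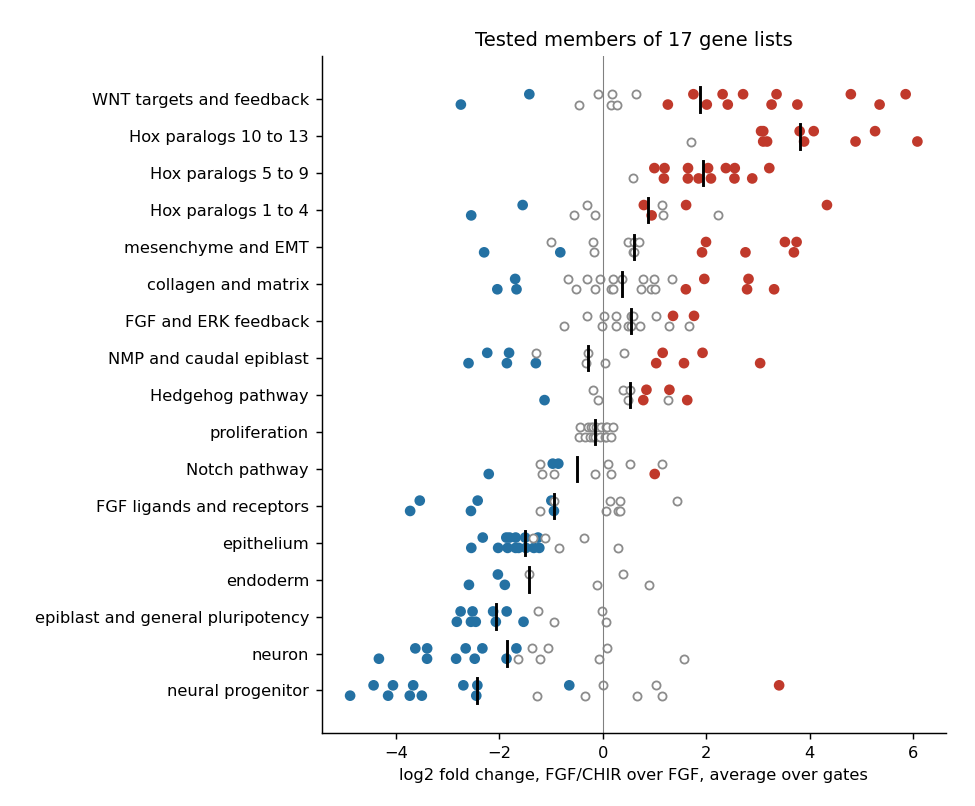
Log2 fold change of FGF/CHIR over FGF, averaged over gates, for the tested members of 17 gene lists, with red and blue points for an adjusted p under 0.05 (higher and lower), open points for the rest and a black bar at each list's median. Medians lie right of 0 for the WNT targets (1.88) and the Hox lists and left of 0 for neural progenitor (-2.44), neuron (-1.86), epiblast (-2.07) and epithelium (-1.50) genes, while no proliferation gene passed.

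Pou3f1, a POU factor of neural plate and epiblast, stood at 2.16 and 2.74 CPM with CHIR and 178, 104 and 74.7 CPM without, and was lower, at -4.89 ± 0.45 (adjusted p = 3.31e-05). Sox1, an early neural plate gene, stood at 5.55 and 0.229 against 112, 179 and 14.7 CPM (adjusted p = 1.45e-05), and was lower within the Sox2+ gate, at -4.45 ± 0.44 (adjusted p = 8.67e-05). Pax6, a homeobox gene of the neural tube, stood at 0.206 and 0.457 against 95.3, 68.9 and 5.78 CPM (adjusted p = 6.15e-05), at no more than 3 reads in the FGF/CHIR libraries. These 3 genes were below every FGF library in both FGF/CHIR libraries. Fabp7, a fatty-acid binder of radial glia, stood at 21.4 and 0 CPM with CHIR and 287, 571 and 24.8 CPM without, lower within the Sox2+ gate, at -4.18 ± 0.54 (adjusted p = 0.000478). Egr2, a hindbrain and neural crest factor outside the list and among the 12 largest decreases, was also lower, at 0.411 and 0.229 against 24, 51.3 and 12.2 CPM (adjusted p = 0.000407). The single gene of the list that was higher was Zic1, named here after its values were seen, at 347 and 465 CPM with CHIR and 62.2, 170.3 and 12.8 CPM without (3.41 ± 0.37, adjusted p = 0.000171). Zic1 is a zinc-finger gene of dorsal neural tube, and of somite mesoderm.

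Neuronal genes were lower as well. Of 17 tested, 10 were lower and none higher in the average (0 to 1 higher over the other settings), with a median of -1.86. In Sox2+ cells 12 were lower, beside 5.6% of all tested genes. In DN cells 1 was lower and 1 higher, beside 3.09% and 3.98%. Summed over 26 genes the level was 118 and 179 CPM with CHIR against 407, 1287 and 156 CPM, so the 2 FGF Sox2+ libraries differed from each other by more than the DN libraries did. The lower count ran from 4 with a filter at 20 CPM to 14 with no filter over the other settings, and was 6 without FGF Sox2+ replicate 2, 13 without Tbxt-derived 7 d replicate 1, 3 under the 2-fold minimum and 0 in the fit of the 5 libraries alone. Stmn2, a tubulin binder of growing axons, stood at 0.411 and 5.03 CPM with CHIR and 61.2, 138 and 36.1 CPM without, and was lower, at -4.33 ± 0.36 (adjusted p = 1.48e-05). Ina, a neurofilament protein, stood at 1.75 and 1.6 against 22.3, 76.4 and 17.8 CPM (-3.40 ± 0.55, adjusted p = 0.00187), and Elavl3, a neuronal RNA binder, at 1.03 and 0.457 against 27, 101 and 7.43 CPM (adjusted p = 0.000411). Glra1, a glycine receptor subunit found among the 12 largest decreases, was listed at 0 CPM in both FGF/CHIR libraries and at 38, 62.6 and 2.68 CPM without CHIR (adjusted p = 2.81e-05).

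Dorsal neural tube genes moved both ways. Of 15 dorsal genes, 3 were higher and 4 lower, beside 5.94% and 7.86% of all tested genes. Lmx1b, a roof plate and limb mesenchyme factor, stood at 15.8 and 18.3 CPM with CHIR and 2.55, 6.26 and 0 CPM without (adjusted p = 0.000149). Pax7 stood at 0.308 and 0 against 18.1, 32.6 and 2.06 CPM and Msx3, a gene of the dorsal neural tube, at 0.206 and 0 against 32.1, 72.6 and 1.24 CPM, and both were lower (adjusted p = 0.000181 and 0.000197). Olig3 was lower as well, at 0.617 and 0 against 11.5, 88.9 and 3.1 CPM (adjusted p = 0.00441, or 0.0831 in the voom fit). Without FGF Sox2+ replicate 2, in a fit in which fewer of these genes were tested, 1 dorsal gene was lower, and without replicate 1, 2 were. Of 8 neuron subtype factors 2 were lower, a count that was 0 or 1 without any 1 library of the replicated groups except Tbxt-derived 7 d replicate 2 (2 lower) or replicate 1 (3 lower). The higher count was 1, or 2 without FGF Sox2+ replicate 2, and the gene was Mnx1, the motor neuron and tail bud gene, at 26 and 1.6 CPM with CHIR and 0.425, 1.25 and 0.825 CPM without. It passed within the Sox2+ gate (adjusted p = 5.26e-05) and not in DN cells (0.543), and the difference between gates passed (0.00559).

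Part of the mesenchyme list was higher with CHIR. Of 16 tested members, 6 were higher and 2 lower in the average (1 lower without FGF Sox2+ replicate 2); 2 were higher and 3 lower in Sox2+ cells, and 7 higher and 1 lower in DN cells. Summed over 17 genes the level was 1558 and 3117 CPM with CHIR against 1212, 2080 and 1160 CPM. Twist1, a bHLH factor of mesenchyme, stood at 179 and 582 CPM with CHIR and 21.9, 50.1 and 22.3 CPM without, and was higher by 3.52 ± 0.38 (adjusted p = 0.000168). Prrx1, a homeobox gene of limb and lateral plate mesenchyme, stood at 61.3 and 316 against 1.91, 20.03 and 13 CPM (3.75 ± 0.64, adjusted p = 0.0039), and Cdh11, a mesenchymal cadherin, at 112 and 449 against 19.8, 47.6 and 33.8 CPM (2.76 ± 0.33, adjusted p = 0.000222). Twist2 followed at 23.1 and 112 against 1.49, 3.76 and 3.71 CPM (3.70 ± 0.69, adjusted p = 0.00558), a call lost in the voom fit (adjusted p = 0.107). For these genes both FGF/CHIR libraries lay above all FGF libraries, with the DN library the highest. Tbxt-derived 7 d cells held more still, at 956, 1645 and 1862 CPM of Twist1 and 1211, 886 and 888 CPM of Cdh11.

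Matrix genes changed both ways. Of 23 tested, 5 were higher and 3 lower in the average, and 7 higher and 3 lower in DN cells. Col3a1, a fibrillar collagen, stood at 259 and 1152 CPM with CHIR and 14.2, 56.3 and 102 CPM without, and was higher by 3.31 ± 0.42 (adjusted p = 0.000568). Col6a3 and Lum, genes of fibroblast matrix, were higher in DN cells: Col6a3 stood at 1.95 and 58.5 against 0.425, 3.76 and 0.413 CPM, and Lum at 0.617 and 54.6 against 0, 1.25 and 0.206 CPM (adjusted p in DN cells = 0.000349 and 0.000169). In Sox2+ cells neither passed (0.877 and 0.93), and for both the difference between gates did (0.00656 and 0.00319), though not in the voom fit. Col4a1, a basement membrane collagen, was lower, at 15.3 and 516 against 41.4, 57.6 and 2864 CPM (-2.04 ± 0.23, adjusted p = 0.000124), and so was Nid1, nidogen, from the adhesion list, at 5.55 and 80.7 against 15.5, 26.3 and 466 CPM (-2.11 ± 0.26, adjusted p = 0.000193). The highest level of Col4a1 and Nid1 was in FGF DN, the library with the highest endoderm sum. Within the Sox2+ gate both were lower too, at -1.61 ± 0.30 (adjusted p = 0.0056) and -1.70 ± 0.34 (adjusted p = 0.00772). None of 10 smooth muscle genes passed in the average or in either gate by limma's test, where 2 had an unadjusted p under 0.05 in the average; other settings called 0 to 1 higher and 0 to 2 lower.

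Most epithelial genes were lower with CHIR. Of 19 tested, 14 were lower and none higher in the average (12 lower in Sox2+ cells, 2 in DN cells). Of all tested genes 7.86% were lower in the average, 5.6% in Sox2+ cells and 3.09% in DN cells. Summed over 20 genes the level was 188 and 788 CPM with CHIR against 1000, 532 and 1817 CPM. The range was 8 to 16 lower over the other settings, with 1 in the fit of the 5 libraries alone and 2 under the 2-fold minimum. Krt8, a keratin of simple epithelium, stood at 12.8 and 115 CPM with CHIR and 132, 102 and 461 CPM without, and was lower, at -2.54 ± 0.25 (adjusted p = 4.5e-05). Epcam, an epithelial adhesion molecule, stood at 19.3 and 68.5 against 147, 67.6 and 186 CPM (-1.87 ± 0.31, adjusted p = 0.00174), and Esrp1, an epithelial splicing factor, at 0.822 and 5.72 against 13.4, 11.3 and 22.1 CPM (-2.32 ± 0.30, adjusted p = 0.000298). In the FGF/CHIR DN library Krt8 and Epcam were at the level of the FGF Sox2+ libraries, so for these the media overlapped across gates. Krt8, Epcam and Esrp1 at 48 h, before the 7 d culture, were all under 15 CPM. The plot of summed levels shows the lists that differ between libraries of the same medium.

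**Figure D5:**
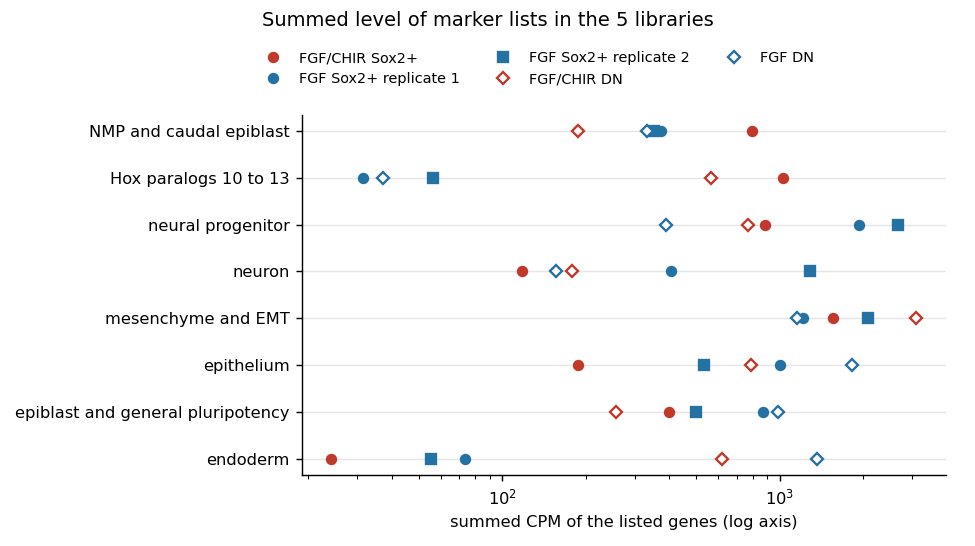
Summed CPM (log axis) of 8 gene lists in each FGF/CHIR library (red) and FGF library (blue), with circles and squares for Sox2+ and open diamonds for DN libraries. Both red points lie far to the right for Hox paralogs 10 to 13 (1030 and 565 against 31.5 to 56.3 CPM), whereas the endoderm list separates the DN libraries (620 and 1364 CPM) from the Sox2+ libraries (24.2 to 73.4 CPM).

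Most genes of the epiblast and of general pluripotency were lower, 9 of 13 tested with none higher and a median of -2.07. In Sox2+ cells 4 were lower and in DN cells 5. Of all tested genes 7.86% were lower in the average, 5.6% in Sox2+ cells and 3.09% in DN cells. Over the other settings 5 to 11 of the list were lower, with 2 under the 2-fold minimum and 0 in the fit of the 5 libraries alone. Summed over the list, the level was 399 and 257 CPM with CHIR against 868, 498 and 987 CPM. Utf1, a chromatin protein of pluripotent cells, stood at 1.85 and 12.1 CPM with CHIR and 50.5, 16.3 and 40.2 CPM without (-2.52 ± 0.42, adjusted p = 0.00164), and L1td1, an RNA binder of pluripotent cells, at 0.925 and 13.9 against 51.9, 6.89 and 62.8 CPM (-2.75 ± 0.59, adjusted p = 0.00898). Otx2, an anterior epiblast factor, was listed at 0 CPM in both FGF/CHIR libraries and in FGF Sox2+ replicate 2, and at 7.01 and 16.7 CPM in FGF Sox2+ replicate 1 and FGF DN (adjusted p = 0.012). Cripto, a Nodal co-receptor outside the list and among the 12 largest decreases, was listed at 0 CPM with CHIR and stood at 10.9, 1.25 and 36.8 CPM without (adjusted p = 0.000725). For these 4 genes FGF Sox2+ replicate 1 and FGF DN lay above replicate 2. Of 12 naive pluripotency genes 3 were lower and none higher (6 lower without FGF Sox2+ replicate 2 and 5 without Tbxt-derived 7 d replicate 1), Zfp42 at 1.85 and 16.1 CPM with CHIR and 71.3, 18.8 and 23.7 CPM without (-2.13 ± 0.44, adjusted p = 0.00675), Klf2 at 0.72 and 2.51 against 20.4, 8.76 and 9.7 CPM (-2.34 ± 0.42, adjusted p = 0.00272), and Nanog at 0 and 0.229 against 5.73, 0 and 21.7 CPM (adjusted p = 0.0096).

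Endoderm genes were found mostly in the DN libraries. Of 7 tested, 3 were lower in the average, and in DN cells 3 were lower and 1 higher. Sox17 stood at 0.103 and 37.9 CPM with CHIR and 0.425, 3.76 and 228 CPM without, lower in DN cells, at -2.55 ± 0.69 (adjusted p = 0.0427). That call on Sox17 was lost without any single library of the NMP or 48 h groups, or Tbxt-derived 7 d replicate 2 or 3, with adjusted p up to 0.066. Ttr, a carrier protein of visceral endoderm, stood at 0.103 and 5.94 against 0, 2.5 and 147 CPM, lower in DN cells, at -4.42 ± 0.70 (adjusted p = 0.00222). The one gene that was higher in DN cells, named after its values were seen, was Amn, a receptor subunit of visceral endoderm, at 1.34 and 110.2 against 5.95, 5.01 and 10.7 CPM (3.25 ± 0.45, adjusted p = 0.00086). Each DN group is 1 library, so the level of endoderm RNA and the medium cannot be told apart in that gate.

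Signalling genes beside WNT also changed, in both directions. Over all tested genes 5.94% were higher and 7.86% lower. Of 16 BMP and TGF-β targets 4 were higher and 2 lower, or 4 lower without Tbxt-derived 7 d replicate 1 and 1 without FGF Sox2+ replicate 1. Id1, a BMP target that blocks bHLH factors, stood at 196 and 426 CPM with CHIR and 90.5, 194 and 45.6 CPM without; it was higher in DN cells by 3.19 ± 0.40 (adjusted p = 0.000636), did not pass in Sox2+ cells (0.56 ± 0.35, adjusted p = 0.355, or 0.0308 without FGF Sox2+ replicate 2), and differed between gates (adjusted p = 0.0247). Id4, a neural member of the same family, stood at 1.03 and 4.34 against 16.8, 20.03 and 16.1 CPM and was lower, at -2.47 ± 0.54 (adjusted p = 0.00988). Fst, a secreted activin and BMP binder, was among the largest decreases, at 2.06 and 4.57 against 38, 28.8 and 428 CPM (-4.87 ± 0.33, adjusted p = 3.16e-06). FGF DN held the highest value of Fst, and the difference within the Sox2+ gate was -3.48 ± 0.43 (adjusted p = 0.000379).

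Of 16 FGF and ERK feedback genes 2 were higher and none lower, both media containing FGF. Il17rd, an FGF receptor antagonist also known as Sef, stood at 141 and 94.9 CPM with CHIR and 43.3, 45.1 and 45 CPM without (1.36 ± 0.24, adjusted p = 0.00233). Etv4, an ETS factor, stood at 49.1 and 40.2 against 12.5, 16.3 and 10.7 CPM (1.76 ± 0.45, adjusted p = 0.0232), and did not pass without FGF Sox2+ replicate 1 (adjusted p = 0.0559). Without Tbxt-derived 7 d replicate 1, 8 of the 16 were higher. Of 14 FGF ligands and receptors 6 were lower and none higher. Fgfr3, a receptor of neural progenitors, stood at 0 and 3.2 CPM with CHIR and 28.2, 28.8 and 23.9 CPM without (adjusted p = 0.0013), and Fgf15 at 4.83 and 0 against 34.2, 46.3 and 18.4 CPM (adjusted p = 1.38e-05).

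Of 15 retinoic acid genes 4 were higher and 5 lower; the higher count was 2 without any 1 of the NMP or Tbxt 48 h libraries, Sox2 48 h replicate 1 or FGF Sox2+ replicate 1. Rarg, a retinoic acid receptor of the caudal embryo, stood at 81 and 26.5 CPM with CHIR and 9.98, 6.26 and 7.84 CPM without, and was higher by 2.42 ± 0.38 (adjusted p = 0.00168). Nr2f1, a nuclear receptor of neural tissue, stood at 13 and 7.54 against 257, 498 and 18.2 CPM and was lower, at -2.93 ± 0.71 (adjusted p = 0.0221). Crabp1, a retinoic acid binder, stood at 27 and 202 against 688, 1512 and 89.6 CPM, lower in Sox2+ cells, at -5.19 ± 0.53 (adjusted p = 0.000266) but with 1.16 ± 0.62 (adjusted p = 0.332) in DN cells. This was the largest positive difference between gates among the named genes, 6.35 ± 0.81 (adjusted p = 0.00337).

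Of 11 Hedgehog genes 4 were higher and 1 lower in the average (none lower without NMP replicate 2 or 3, any 48 h library, FGF Sox2+ replicate 2 or Tbxt-derived 7 d replicate 3), and in Sox2+ cells none was higher and 3 were lower. Gli2 stood at 49.1 and 62.6 CPM with CHIR and 26.8, 35.1 and 9.49 CPM without (1.63 ± 0.24, adjusted p = 0.000787), and Gli3, which mostly acts as a repressor, at 225 and 160.2 against 124, 194 and 38.2 CPM (1.29 ± 0.29, adjusted p = 0.0111). In Sox2+ cells neither passed (adjusted p = 0.221 and 0.418). Of 12 Notch genes 1 was higher and 3 lower (1 lower without NMP replicate 3, and 5 without FGF Sox2+ replicate 1 or Tbxt-derived 7 d replicate 1). Nrarp, a feedback gene of Notch, stood at 6.78 and 1.83 against 36.1, 62.6 and 8.67 CPM and was lower, at -2.21 ± 0.35 (adjusted p = 0.00127), and Hey1 stood at 21.2 and 8.0 against 7.22, 12.5 and 3.71 CPM and was higher by 1.00 ± 0.25 (adjusted p = 0.0165). Of 18 IGF and imprinted genes 5 were higher and 2 lower, or 5 lower without Tbxt-derived 7 d replicate 1. Igfbp4, an IGF binder, stood at 56.3 and 233 CPM with CHIR and 24.8, 21.3 and 11.6 CPM without (2.74 ± 0.18, adjusted p = 2.29e-06), and Meg3, an imprinted non-coding RNA, at 88.4 and 232 against 395, 275 and 501 CPM (-1.50 ± 0.23, adjusted p = 0.00113).

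None of 18 proliferation genes passed in the average by limma's test, where 3 had an unadjusted p under 0.05. The other settings called none higher and 0 to 3 lower, the voom fit 1, and within the Sox2+ gate 2 were lower. Cell cycle inhibitors and Myc genes gave 5 lower of 12. Mycn stood at 8.33 and 25.8 CPM with CHIR and 80.3, 80.1 and 61.9 CPM without (-2.18 ± 0.39, adjusted p = 0.0036), Mycl at 17.7 and 10.1 against 98.9, 95.2 and 26.4 CPM (-1.85 ± 0.21, adjusted p = 0.00013), and Btg2, an antiproliferative gene of neurogenic divisions, at 34.4 and 47.1 against 82.4, 93.9 and 126 CPM (-1.36 ± 0.33, adjusted p = 0.0172). Among 13 p53 targets, 2 were higher and 2 lower, with 1 higher without either FGF Sox2+ library, and 0 to 5 lower over the left-out libraries (5 without Tbxt-derived 7 d replicate 1, 0 without NMP replicate 3 or FGF Sox2+ replicate 1). Cdkn1a, the gene of p21, stood at 563 and 544 CPM with CHIR and 118, 189 and 316 CPM without, and was higher by 1.35 ± 0.33 (adjusted p = 0.0213). Of 15 immediate early and stress genes 2 were higher and 1 was lower, beside 5.94% and 7.86% of all tested genes. Ier2 was among them, at 245 and 259 against 79.6, 93.9 and 59.8 CPM (1.79 ± 0.17, adjusted p = 2.98e-05).

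Outside these lists, the largest increases by the naming rule held genes of other functions. Tril, an accessory protein of Toll-like receptors, stood at 244 and 333 CPM with CHIR and 5.52, 11.3 and 10.9 CPM without, higher by 4.79 ± 0.27 (adjusted p = 1.29e-06). Gxylt2, a xylosyltransferase that modifies Notch, stood at 98.7 and 151 against 3.82, 2.5 and 4.95 CPM, higher by 4.64 ± 0.22 (adjusted p = 3.63e-07). Both genes changed by nearly the same amount in the 2 gates, with 4.78 and 4.81 for Tril and 4.60 and 4.67 for Gxylt2. Apod, a lipocalin, stood at 26.9 and 43.7 against 0, 0 and 0.413 CPM (adjusted p = 7.09e-06) and Ism1, a secreted protein, at 44.2 and 51 against 2.55, 5.01 and 0.206 CPM (adjusted p = 0.000131). Defa30 is 1 of a family of near-identical genes, so its 27.3 and 14.9 against 0, 0 and 0.0516 CPM are uncertain. Nrp2, a semaphorin receptor, stood at 308 and 403 CPM with CHIR and 43.7, 55.1 and 21.7 CPM without, and was higher by 3.39 ± 0.18 (adjusted p = 7.35e-07). Hand1, a lateral plate factor, went the other way, at 0.411 and 1.6 against 75, 26.3 and 31.8 CPM, lower, at -4.33 ± 0.44 (adjusted p = 6.26e-05).

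Crest, glial and guidance genes gave single changes of either sign. Of 11 neural crest and Schwann lineage genes 1 was higher and 3 lower. The higher count was 2 without FGF Sox2+ replicate 2 or Tbxt-derived 7 d replicate 3 and 4 without Tbxt-derived 7 d replicate 1. Ngfr, a neurotrophin receptor of crest and mesenchyme, stood at 12.9 and 58.5 CPM with CHIR and 5.1, 13.8 and 2.48 CPM without, higher in DN cells by 4.10 ± 0.74 (adjusted p = 0.00518), and did not pass in Sox2+ cells (0.55 ± 0.64, adjusted p = 0.648). Erbb3, a neuregulin receptor of crest cells, stood at 1.65 and 2.97 against 30.6, 18.8 and 7.84 CPM and was lower, at -2.20 ± 0.34 (adjusted p = 0.000991). Of 10 glial genes 1 was higher and 2 lower; the higher one, Nfia, a factor that also acts in mesenchyme, stood at 74.2 and 191 against 11, 32.6 and 18.6 CPM (2.60 ± 0.35, adjusted p = 0.0006). Of 27 axon guidance genes 3 were higher (5 without Tbxt-derived 7 d replicate 1) and 3 lower. Over all tested genes 5.94% were higher and 7.86% lower. Ntn1, the chemoattractant netrin, stood at 0.411 and 2.51 CPM with CHIR and 17.8, 12.5 and 7.64 CPM without, and was lower, at -2.40 ± 0.24 (adjusted p = 5.61e-05). Sema5a, a semaphorin, stood at 22.3 and 127 against 6.58, 7.51 and 13.8 CPM and was higher by 2.32 ± 0.37 (adjusted p = 0.00153).

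Of 19 adhesion genes 1 was higher and 7 lower, with 2 lower in Sox2+ cells and 5 in DN cells. Over all tested genes 5.94% were higher and 7.86% lower, with 5.6% lower in Sox2+ cells and 3.09% in DN cells. Pcdh8, a protocadherin of mesoderm and neural tissue, stood at 0.308 and 0 CPM with CHIR and 37.6, 55.1 and 2.27 CPM without (adjusted p = 6.16e-05). Lamc1, whose level in FGF DN was given above, was lower in DN cells, at -3.87 ± 0.40 (adjusted p = 0.000169) and did not pass in Sox2+ cells (-0.22 ± 0.34, adjusted p = 0.75). Of 17 hypoxia and glycolysis genes 3 were lower, as were 3 of 15 cholesterol genes (5 without Tbxt-derived 7 d replicate 1). Slc2a1, a glucose transporter, stood at 260.2 and 114 CPM with CHIR and 497, 349 and 417 CPM without (-1.27 ± 0.21, adjusted p = 0.00179), and Ndrg1 at 6.37 and 29.7 against 41.6, 35.1 and 113 CPM (-2.15 ± 0.31, adjusted p = 0.000713). Insig1, a brake on cholesterol synthesis, stood at 117 and 176 against 223, 201 and 1087 CPM (-1.74 ± 0.20, adjusted p = 0.000124). No cholesterol gene passed within the Sox2+ gate, and FGF DN held the highest level of Insig1. Dlx5, a homeobox gene of surface ectoderm and limb, was higher, at 24 and 29 CPM with CHIR and 0.849, 5.01 and 0.619 CPM without (adjusted p = 0.000489). Lists of other cell types had few tested members: of 7 intermediate mesoderm genes 1 was higher, of 10 limb and lateral plate genes 1 was higher and 3 lower, of 9 surface ectoderm genes 1 was higher and 2 lower, and of 2 endothelial genes 1 was lower. The count of higher limb genes was 2 without FGF Sox2+ replicate 2 or Tbxt-derived 7 d replicate 2 and 3 without Tbxt-derived 7 d replicate 1, and that of lower surface ectoderm genes 1 without FGF Sox2+ replicate 2 and 4 without Tbxt-derived 7 d replicate 1. Of 3 ventral neural tube genes 1 was higher and 1 lower, of 4 cartilage genes 1 was higher, and of 4 interferon genes 1 was lower. No ventral gene was higher without NMP replicate 1 or 2 or FGF Sox2+ replicate 2, no cartilage gene was higher without NMP replicate 3, either Tbxt 48 h replicate, either FGF Sox2+ replicate or Tbxt-derived 7 d replicate 2, and 2 interferon genes were lower without FGF Sox2+ replicate 2. In the blood list 1 gene was tested and in the skeletal muscle list 2, and none of these passed. Leaving out Tbxt-derived 7 d replicate 1 also gave 2 higher Notch, adhesion and glial genes, 3 higher hypoxia genes, 2 lower immediate early genes, and 1 higher blood gene, FGF ligand or receptor and endoderm gene. The lower count was 1 for glial genes and 0 for immediate early genes without FGF Sox2+ replicate 1, and the last was also 0 without NMP replicate 3.

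The difference between gates, DN minus Sox2+, was past the test for 316 genes (2.44%), with 219 positive values (1.69%) and 97 negative ones (0.749%). The total was 186 without NMP replicate 3, 589 without FGF Sox2+ replicate 1 and 701 without Tbxt-derived 7 d replicate 1. Among the named genes with the most negative values, Epas1, Adamts9 and Kit were highest in FGF DN, while Cdx1, described above, was highest in FGF/CHIR Sox2+. Epas1, the gene of HIF-2α, stood at 3.7 and 6.86 CPM with CHIR and 1.49, 7.51 and 462 CPM without, with a gate difference of -5.91 ± 1.00 (adjusted p = 0.0101). Adamts9, a matrix protease, stood at 22.7 and 19 against 15.1, 12.5 and 443 CPM (-5.16 ± 0.73, adjusted p = 0.00319), and Kit, a receptor tyrosine kinase, at 7.5 and 5.03 against 11.7, 18.8 and 235 CPM (-4.39 ± 0.56, adjusted p = 0.0021). For these 3 genes FGF DN lay far above the other 4 libraries, and none of them passed within the Sox2+ gate (adjusted p = 0.985, 0.411 and 0.15). FGF DN was also the library with the highest endoderm, endothelium, limb and intermediate mesoderm sums. On the positive side, Htra1, a secreted protease, stood at 1.75 and 116 against 34.2, 28.8 and 18.8 CPM (6.12 ± 1.34, adjusted p = 0.0414), a call that 9 of 12 left-out libraries removed (adjusted p up to 0.081), and Casz1, a zinc-finger gene, at 2.16 and 25.6 against 37.6, 75.1 and 6.6 CPM (5.91 ± 0.94, adjusted p = 0.00646). Of the neural progenitor list 6 genes had a positive gate difference. Pou3f3, a POU factor of neural progenitors, was one of them, at 0.411 and 0.457 against 70.1, 137 and 2.68 CPM (adjusted p = 0.00841).

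Levels in the 48 h source cells and in Tbxt-derived 7 d cells were set beside those of the 5 libraries, as counts with no test. Of the 1017 genes lower with CHIR, 880 (86.5%) had a 48 h level nearer to the FGF/CHIR than to the FGF libraries, against 61.3% of all genes. Of the 769 higher genes this held for 368 (47.9%). Pou3f1, for example, stood at 4.8 and 2.97 CPM at 48 h and Stmn2 at 4.04 and 3.43 CPM, near their FGF/CHIR levels. Nkd2 stood at 7.07 and 9.83 CPM and Twist1 at 22.5 and 42.7 CPM at 48 h, nearer to FGF. Tbxt-derived 7 d cells, also kept in FGF/CHIR, were nearer to the FGF/CHIR libraries for 616 of the higher genes (80.1%) and 795 of the lower ones (78.2%), against 61.7% of all genes. Nkd2 stood there at 159, 349.8 and 366 CPM and Apcdd1 at 63.5, 479.7 and 509 CPM, and replicate 1 of that group lay below the other two for both genes.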

How the data were processed

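RNA of sorted cells was measured in 15 libraries, of which 5 (7 d cultures of Sox2-derived cells) are compared here. The authors deposited a table of CPM (counts scaled to a total of 1000000 per library) per gene; per the submitters' processing notes, STAR 2.7 and SAMtools 1.21 were used with GRCm39, and the counting step and its strand setting are not given in these sources. Per the labels' protocols, libraries were made from oligo-dT primed RNA with molecular identifiers and tagmentation. Rows with no gene name (21909 of 78409, holding 1.10 to 1.81% of the CPM) and 92 spike-in rows were left out, and 627 rows sharing 311 symbols were summed, which left 56092 named genes. Tbxt is listed in the table as T.

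CPM values were whole multiples of 1 read, within 0.01 reads, for only 71.1 to 78.7% of values, so no count model was used. Values were tested as log2(CPM + 1) with limma 3.58.1 (trend and robust moderation, two-sided, R 4.3.3) in 1 fit that held all 15 libraries, 8 groups and 7 residual degrees of freedom. A gene was kept where 2 or more libraries reached 5 CPM (12943 genes), and adjusted p-values are Benjamini-Hochberg values over these. FGF/CHIR was compared with FGF within the Sox2+ and the DN gate, as the average of both and as their difference. Groups of 1 library take their spread from the other groups. Data were simulated with 1 dispersion, 0.05, for all genes and libraries. Changes were planted in genes with a mean of 5 CPM or more in both FGF groups, with no difference between cultures. For the average, 28% of 2-fold and 98% of 4-fold changes were recovered with 6 false calls among 12762 genes. Within the Sox2+ gate the shares were 7% and 69%, and within the DN gate 0% and 47%. The simulation cannot give the false calls in the real data, where cultures and cell types may differ.

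Named genes are Sox2 and Tbxt, every tested WNT target, the 12 largest changes each way that were past the test, with the same direction and separate libraries in both gates and at least 20 CPM, up to 4 passing genes of each of 46 lists by size of change, and the 6 largest gate differences each way with at least 20 CPM; genes outside this rule (Wnt3a, Wnt8a, Gsk3b, Ctnnb1, Cdx2, Zic1 and Amn) were named after their values were seen. The members and lists were chosen with earlier results of these data known. Alternatives covered pseudocounts, filters, scaling, array weights, voom, a 2-fold minimum, the 5 libraries alone and leaving out each replicate; raising values under 3 reads to 3 reads was added after seeing the data. Promoter windows come from the RefSeq table of GRCm38.p6, whose coordinates are not those of the count table. Values of 2 list genes are not reported here; they remain in the counts of calls, of named genes and of list members.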

Additional observations from a re-analysis of the deposited data

Results flagged for a closer look

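For 33 named genes the difference between the media was not the same in the 2 gates, by limma's test of the gate difference (adjusted p under 0.05). Some of them were named because this value was among the 6 largest each way, so their number is partly set by the naming rule. Over all tested genes 316 (2.44%) passed. Each value is the log2 fold change in DN cells minus that in Sox2+ cells, on the log2(CPM + 1) scale, so a negative value means that FGF/CHIR stood lower relative to FGF in DN cells. The size for genes at 3 reads or fewer depends on the pseudocount. Among caudal and tail bud genes the difference was -5.47 for Cdx1, -5.26 for Fgf8, -4.44 for Tbxt, -3.42 for Cdx4 and -3.40 for Mnx1. Among genes that were highest in FGF DN it was -5.91 for Epas1, -5.16 for Adamts9, -4.39 for Kit, -3.66 for Lamc1, -3.63 for Spink1 and -2.79 for Fst, and among hypoxia and cholesterol genes -2.99 for Egln3 and -1.77 for Insig1. Fgf8, Tbxt and Insig1 were highest in FGF DN too, and the fold change of Fgf8 in Sox2+ cells was 0.03.

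On the positive side, the difference was 6.35 for Crabp1, 5.91 for Casz1, 5.67 for St8sia2, 5.62 for Lrrn1, 4.79 for Pou3f3, 4.19 for Msx3, 3.87 for Pax6, 3.76 for Glra1, 5.56 for Nr0b1, 3.44 for Pcdh8, 3.42 for Stmn2, 2.92 for Wnt7b and 2.20 for Ntn1, genes for which at least 1 FGF Sox2+ library held the highest level of the 5 libraries. Among genes that were highest in FGF/CHIR DN it was 6.12 for Htra1, 5.42 for Lum, 5.22 for Col6a3, 2.97 for Igfbp4, 2.84 for Dkk2, 2.63 for Id1 and 1.53 for Nrp2. Each DN group is 1 library, and FGF DN also held the highest endoderm, endothelium, limb and intermediate mesoderm sums. Their part in these differences was not tested.

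Under the 2-fold minimum 14 of the 33 differences were called, and the fit of the 5 libraries alone cannot give one. Over the other 21 settings, 12 stayed past the threshold wherever they were tested, 10 of them also under the 2-fold minimum. Another 10 lost it without at least 1 single library (Cdx4, Dkk2, Fst, Htra1, Insig1, Nrp2, Ntn1, Pax6, Pcdh8 and Wnt7b, with adjusted p up to 0.118 in limma). The libraries concerned were any of the NMP, Sox2 48 h, Tbxt 48 h or FGF Sox2+ libraries and Tbxt-derived 7 d replicates 2 and 3. The remaining 11 kept it in each left-out-library fit in which they were tested but lost it under another pseudocount, filter or mean-variance model or with values raised to 3 reads, among them Lum, Fgf8, Glra1 and Stmn2.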

How the results depend on the processing

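Depth limits low genes most in FGF Sox2+ replicate 2 (0.799 M reads, 3 reads being 3.76 CPM), and 3 of 4 groups hold 1 library, so the error of every value rests on other groups. None of the genes called in the average, in either gate or in the gate difference changed sign under an alternative in which it was tested. For many alternatives this was fixed in advance. Leaving out an NMP, 48 h or Tbxt-derived library, changing the filter or setting a 2-fold minimum does not alter a fold change. Only the remaining alternatives could have changed a sign. The count of called genes in the average moved from 1786 to 2771 with no filter, 3908 with array weights, 199 with a 2-fold minimum and 90 in the fit of the 5 libraries alone. Within the Sox2+ gate the count of 1160 became 743 with a filter at 20 CPM, 2039 with array weights and 181 with the 2-fold minimum. Within the DN gate 915 became 1980 with no filter, 3540 with array weights and 130 with the 2-fold minimum, and the 316 gate differences became 1229, 1444 and 38. Leaving out each replicate gave 1407 to 2510 calls in the average, 864 to 1838 within the Sox2+ gate, 699 to 1516 within the DN gate and 186 to 701 for the gate difference, with the lowest count without NMP replicate 3 and the highest without Tbxt-derived 7 d replicate 1 each time. The cause was not tested. Of 169 named genes called in the average, the 5 libraries alone kept 32 and the 2-fold minimum 63, and 126 were called in all of the other 21 settings in which they were tested. No paired analysis was possible because the FGF/CHIR libraries and FGF DN carry no replicate number in the labels, so no 2 groups compared share one.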
